A study of Mus musculus with 4 samples.

Results

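The binding site of the transcription factor MITF was printed on a DNA array in a 60-base probe with either its E-box intact or 2 of the site's bases changed, and each version was followed by every combination of 4 varied bases. These 512 probes, as many with the E-box as with the changed site, were selected by name from 6126 probe names, and each E-box probe was paired with the changed-site probe that ended in the same 4 varied bases. A second E-box library with another 3′ stretch was kept out of the pairs. Every probe name occupied 10 spots on each array, and its value was the median fluorescence intensity of the unflagged spots, a brightness with no unit that ends at 65535.

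Ultraviolet light joins adjacent pyrimidines of DNA into photoproducts. Cyclobutane pyrimidine dimers (CPD) form readily at adjacent thymines, and 6-4 photoproducts (6-4PP) form readily at thymine followed by cytosine. MITF is a basic helix-loop-helix factor of melanocytes that binds the palindromic E-box CACGTG. Such sites hold no adjacent pyrimidines themselves, so that a photoproduct can form only beside them or across their junction with a neighbouring base.

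The series held 4 arrays, with 1 array in each group. A mouse antibody against CPD, diluted 1 in 400, was used on an irradiated (UV) and a non-irradiated array, and an antibody against 6-4PP, diluted 1 in 80, was used on another such pair of arrays. No MITF protein was part of these arrays, and the probes are synthetic DNA. For the 6-4PP antibody the array titles and the condition field of the labels contradict each other. The field was followed here, and under it the probes were far brighter on the irradiated array of either antibody.

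Within a pair, the probes were identical outside the site. In the listed strand, numbered from 1 at the 5′ end, the site lay at bases 10 to 15 and the varied bases at 16 to 19, and the change consisted of C10T and A11G, which turned CACGTG into TGCGTG. The varied bases were preceded by the site and followed by C. The pairs below carry the largest differences on the non-irradiated arrays (GTAA and GTCA, then GTGA and GTTA), the most negative difference on the irradiated 6-4PP array (CACA) and the brightest E-box probe of the irradiated CPD array (ATTT). Capitals mark the 6-base site and the 4 varied bases.
E-box GTAA: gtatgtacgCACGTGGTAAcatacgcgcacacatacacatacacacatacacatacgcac
Changed site GTAA: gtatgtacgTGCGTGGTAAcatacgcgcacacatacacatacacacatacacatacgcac
E-box GTCA: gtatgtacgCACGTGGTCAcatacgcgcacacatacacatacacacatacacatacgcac
Changed site GTCA: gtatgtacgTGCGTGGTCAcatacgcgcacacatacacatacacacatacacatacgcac
E-box GTGA: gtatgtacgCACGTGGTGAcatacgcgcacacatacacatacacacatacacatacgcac
Changed site GTGA: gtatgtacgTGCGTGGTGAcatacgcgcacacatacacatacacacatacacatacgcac
E-box GTTA: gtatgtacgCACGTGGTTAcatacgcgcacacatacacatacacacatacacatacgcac
Changed site GTTA: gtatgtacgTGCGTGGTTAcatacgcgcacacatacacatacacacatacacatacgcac
E-box CACA: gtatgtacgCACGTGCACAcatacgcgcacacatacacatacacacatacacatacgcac
Changed site CACA: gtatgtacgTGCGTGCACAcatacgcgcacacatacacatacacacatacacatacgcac
E-box ATTT: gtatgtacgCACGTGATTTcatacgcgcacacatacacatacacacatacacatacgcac
Changed site ATTT: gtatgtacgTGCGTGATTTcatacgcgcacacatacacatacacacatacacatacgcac

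In every pair the probes held the same dipyrimidines on both strands, in the same 4-base contexts, since the changed bases are separated from the varied ones by 4 shared bases and create no adjacent pyrimidines. Outside the varied bases and their junctions, 0 of the 512 probes held a dipyrimidine. A purine run in the listed strand is a pyrimidine run in the other strand, and counted over both strands 16 pairs had no dipyrimidine, 160 had 2 and 80 had 4. The motif CACGTG was found in each E-box probe, in 0 changed-site probes and in 21.7% of all probe names. For 64 probes of each library, those with C at the first varied place, the same sequence was also printed under another name, which gave a second set of spots for those pairs.

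The 2 libraries were close to each other in level. On the non-irradiated CPD array the median over probes was 29 for the E-box library and 29 for the changed-site library, against 30 for all probe names. Irradiated, the same array design gave 3006 and 3199 with the CPD antibody, against 4193 for all names. With the 6-4PP antibody the medians were 58 and 61 without UV, against 56.5 for all names, and 14688 and 13907 with UV, against 15228. On either irradiated array both libraries therefore sat below the median of the whole design, and the libraries differed from each other by far less than either differed between conditions.

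Each of the 512 probes was brighter on the irradiated array of either antibody. For CPD the irradiated minus non-irradiated log2 difference had a median of 6.64 over E-box probes and 6.79 over changed-site probes. For 6-4PP the median was 8.05 over E-box probes and 7.86 over changed-site probes. The smallest such differences of the E-box library were those of GTAA, at 3.67 for CPD and 4.62 for 6-4PP, and the GTAA probe with the changed site stood at 6.06 and 6.85. With 1 array a group no difference between conditions was tested, and gain was not given in the sources used here.

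E-box and changed site were then compared within pairs on each array, as the log2 of the E-box median minus the log2 of the changed-site median (the pair difference). A pair was called when an exact two-sided permutation test of its 10 against 10 spots, with Benjamini-Hochberg adjustment over all 2560 site and changed-site pairs of the array, gave an adjusted p under 0.05. The test and the direction of a call use the means of log2 spot intensity. The SE given beside a pair difference is likewise that of the difference of these means, not of the medians. Spots are technical replicates, so the test compares spots of that array and not conditions. The deposited files also give an intensity corrected for the brightness of the surrounding area, called the spatially adjusted intensity below. Counts of calls are given with both intensities.

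Without UV, the CPD antibody signal differed between E-box and changed site in very few pairs. The pair difference had a median of 0 and a middle range from -0.07 to 0.07, with 127 pairs above 0, 108 below and 21 at 0. The E-box probe was called higher in 4 pairs, against 0.391% of all 2560 pairs, and called lower in 1 pair, against 1.91%. With the spatially adjusted intensity the same 4 pairs were called higher, against 0.664% of all pairs, and 4 lower, against 4.22%. The 4 higher pairs ended in GTAA and GTCA and in GTGA and GTTA, the complete set of GTNA endings, where N is any base. Without these 4, the highest pair difference of the library was 0.29 (CCAT), and the SD over the pairs was 0.12 instead of 0.29.

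The GTAA pair had the largest difference of all on this array. Its E-box probe read 328 (spots from 251 to 425) and its changed-site probe 45.5 (35 to 51), so that the spots did not overlap. The pair difference was 2.85 ± 0.10 (SE over spots, 10 against 10), or 7.21-fold, with an adjusted exact permutation p of 0.00252.

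GTCA came next and was also free of overlap. Its E-box probe read 229.5 (157 to 350) and its changed-site probe 39 (34 to 49), a difference of 2.56 ± 0.13 (SE), or 5.88-fold. The GTGA probe read 96.5 (73 to 110) with the E-box and 31 (25 to 38) with the changed site. The difference was 1.64 ± 0.08 (SE), or at least 3.11-fold. It is given as a bound because 31 lies near background, taken as the 95th percentile of names without a dipyrimidine (given further on). GTCA and GTGA each had an adjusted exact permutation p of 0.00252. Spots failed to overlap in this direction in 3 pairs of these libraries, which are these and GTAA, and in 0.117% of all 2560 pairs. They failed to overlap in the other direction in 0 pairs here and in 0.312% of all pairs.

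GTTA followed at a distance. Its E-box spots ran from 36 to 55 around 45.5 and its changed-site spots from 26 to 44 around 31.5, so they overlapped. The difference was 0.53 ± 0.10 (SE), or at least 1.44-fold for the same reason, with an adjusted exact permutation p of 0.0368, and of 0.00163 with the spatially adjusted intensity. The unadjusted call was lost in 8 of the 10 repeats with a spot left out.

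The 6-4PP antibody gave the same 4 pairs on its own non-irradiated array. For GTAA the E-box probe read 427 (354 to 558, over 9 unflagged spots) and the changed-site probe 80.5 (66 to 90), a difference of 2.41 ± 0.09 (SE), or 5.30-fold. For GTCA the values were 275.5 (149 to 432) and 76.5 (68 to 91), a difference of 1.85 ± 0.15 (SE), or 3.60-fold. For GTGA they were 146 (118 to 176) and 66 (56 to 72), a difference of 1.15 ± 0.07 (SE), or 2.21-fold. These 3 pairs again had no overlap between spots, each with an adjusted exact permutation p of 0.00213. Among all 2560 pairs 0.273% lacked overlap in this direction and 0.234% in the other, in which 0 pairs here lacked it.

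GTTA again showed a small difference with overlapping spots. It read 74 (68 to 79) with the E-box and 62 (47 to 70) with the changed site, a difference of 0.26 ± 0.06 (SE), or at least 1.19-fold, with an adjusted exact permutation p of 0.00272. The order, with GTAA and GTCA ahead of GTGA and GTTA last, was therefore the same for both antibodies. The E-box probes GTAA, GTCA and GTGA were also the 3 brightest of all 6126 names on either non-irradiated array, where the brightest other name read 88.5 with the CPD antibody and 105.5 with the 6-4PP antibody.

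Of the changed-site probes with these endings, GTAA and GTCA also stood above their library. The changed-site GTAA probe had the highest unadjusted value of all changed-site probes on both non-irradiated arrays, at 45.5 against a library median of 29 and at 80.5 against 61. GTCA, at 79.1, was just above GTAA, at 78.9, with the spatially adjusted 6-4PP intensity. As a measure of signal without photoproduct, the 95th percentile of names without a dipyrimidine was 31 with the CPD antibody and 61 with the 6-4PP antibody. These levels pool names of the whole design. With the 6-4PP antibody 61 was also the median of the changed-site library, so it does not mark the upper end of that library. The changed-site GTGA probe, at 31 and 66, and the changed-site GTTA probe, at 31.5 and 62, were near these levels, and the changed-site GTCA probe, at 39 and 76.5, was above them.

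The sequences around these endings were compared next. With the E-box and the following C, the 4 probes read CACGTGGTNAC, where N is any base, and 8 of all names (0.131%) held this motif on either strand. The other 4 holders were the E-box probes of the library with another 3′ stretch. The shorter motif GTGGTNAC, searched on both strands, was in 28 names (0.457%), among them the changed-site probes with GTNA endings. The 16 holders with other varied bases read 25 to 31 with the CPD antibody and 36.5 to 60.5 with the 6-4PP antibody, without UV. With the 6-4PP antibody the value of 60.5 was that of the changed-site ACCA probe. The value of 36.5 belonged to probes of libraries built on another site (p53), so that range spans different libraries. A motif match is a description of the letters and not evidence of a bound factor. Capitals mark the site and the varied bases in the GTAA probes of the other 3′ stretch and of the 59-base libraries, in which the C after the varied bases is missing.
E-box GTAA, other 3′ stretch: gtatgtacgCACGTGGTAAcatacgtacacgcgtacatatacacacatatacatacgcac
E-box GTAA, 59 bases: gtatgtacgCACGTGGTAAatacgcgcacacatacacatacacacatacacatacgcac
Changed site GTAA, 59 bases: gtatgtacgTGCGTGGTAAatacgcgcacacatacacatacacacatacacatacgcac

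With the other 3′ stretch, the GTAA E-box probe read 42.5 on the non-irradiated CPD array (spots from 39 to 49). This was below the lowest spot of the 60-base E-box probe of the pairs, at 251. On the 6-4PP array it read 65 (53 to 76), against a lowest spot of 354. The GTCA probe of that library read 52 and 69.5, and its GTGA and GTTA probes read 30.5 and 39 with the CPD antibody and 48.5 each with the 6-4PP antibody.

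Probes of 59 bases did not show a difference of that size either. The 59-base GTAA probe read 30.5 with the E-box and 29.5 with the changed site on the non-irradiated CPD array, and 65 and 60 on the 6-4PP array. Over all pairs of 59 bases, the highest pair difference was 0.30 with the CPD antibody and 0.42 with the 6-4PP antibody, without UV. Both E-box libraries of 60 bases carry the same letters from the 5′ end through the C after the varied bases, and they differed in the level of these probes.

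On the irradiated arrays the same endings did not stand apart. With the CPD antibody, GTAA read 4182 (2038 to 8192) with the E-box and 3035.5 (1812 to 4849) with the changed site, a pair difference of 0.46 ± 0.27 (SE), with an adjusted exact permutation p of 0.765. With the spatially adjusted intensity the sign was the opposite, at -0.15. With the 6-4PP antibody the GTAA pair read 10519.5 (8247 to 14415) and 9255.5 (4572 to 16134), a difference of 0.18 ± 0.18 (SE), with an adjusted exact permutation p of 0.504.

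GTCA, GTGA and GTTA were not called on either irradiated array. With the CPD antibody GTCA read 3089.5 against 2692.5, GTGA 2332.5 against 2315.5 and GTTA 5788.5 against 5069.5. With the 6-4PP antibody the same pairs read 14544.5 against 13724, 11263 against 12033 and 11619.5 against 11172.5. On a linear scale the GTAA pair differed by 282.5 on the non-irradiated CPD array, and the spots of its E-box probe on the irradiated CPD array had an SD of 1969. For 6-4PP that difference was 346.5 and the SD 1767. Gain was not given, so the units of the arrays may not match, and an SD of single spots is not the error of a pair difference. Whether the irradiated arrays held a surplus of the non-irradiated size was not tested. The change of the pair difference between conditions was not tested either.

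Away from the GTNA endings, the non-irradiated 6-4PP array carried a small shift to the changed site. The median pair difference was -0.06, with 175 pairs below 0, 72 above and 9 at 0, while the 2304 pairs of the other libraries had a median of 0. The E-box probe was called higher in 7 pairs, against 4.49% of all pairs, and lower in 14 pairs, against 10.2%. The same counts, 7 and 14, were obtained with the spatially adjusted intensity, against 5.16% and 10.8%, and 17 of the 21 pairs were shared. As shares of all pairs of these libraries the unadjusted counts are 2.73% and 5.47%, both below the background. Beside the GTNA endings, AGTG (0.14), CCCA (0.19) and CCTT (0.37) were called higher. The pairs called lower ranged from -0.36 to -0.15 and were, by first base, AACG (-0.15), AAGT (-0.36), AATA (-0.20), AGCA (-0.29) and ATGT (-0.22), then CGAC (-0.15), CGAT (-0.22) and GGTG (-0.28), then TAGT (-0.34), TCTG (-0.26), TCTT (-0.25), TGCA (-0.17), TTCG (-0.20) and TTTG (-0.17).

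CCTT was the most distinct of these. It read 86 (70 to 90) with the E-box and 66.5 (61 to 72) with the changed site, a difference of 0.37 ± 0.05 (SE) and an adjusted exact permutation p of 0.00272. Its spots overlapped only slightly. Under its other name the same pair of sequences was at 0.19 unadjusted and was called higher, and it was not called with the spatially adjusted intensity. In the opposite direction AAGT read 56 (49 to 72) against 72 (56 to 84), a difference of -0.36 ± 0.08 (SE), with an adjusted exact permutation p of 0.0278. The other pairs called with the unadjusted intensity that had a second set of spots were CCCA, CGAC and CGAT. Under their other names they were at 0.09, -0.14 and -0.07 unadjusted, and none was called there with either intensity.

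AAGT was also the pair called lower on the non-irradiated CPD array. There it read 34.5 (28 to 37) with the E-box and 40 (33 to 58) with the changed site, a difference of -0.21 ± 0.09 (SE), with an adjusted exact permutation p of 0.0296. With the unadjusted intensity it was the 1 pair called lower with both antibodies without UV, and its CPD call was lost in 8 of the 10 repeats with a spot left out. The other pairs ending in AGT also lay below 0 on both non-irradiated arrays. GAGT had pair differences of -0.40 and -0.26, TAGT of -0.28 and -0.34 and CAGT of -0.37 and -0.09, with the CPD and the 6-4PP antibody in that order. Of these, TAGT was called on the 6-4PP array, with an adjusted exact permutation p of 0.0204. GAGT and TAGT were called lower with both antibodies once the spatially adjusted intensity was used, as AAGT was, and TGAG on the CPD array. For GAGT on the 6-4PP array that adjusted exact permutation p was 0.0165. CAGT was not called, but under its other name the same pair of sequences was at -0.28 (CPD) and -0.22 (6-4PP) unadjusted. There it was called lower with both intensities on the 6-4PP array and with the spatially adjusted intensity alone on the CPD array. The other pairs at the lower end were TTTA and CTTG, at -0.39 and -0.36 with the CPD antibody, ATTA, at -0.34 there, and GATG, at -0.31 with the 6-4PP antibody, and none of them was called.

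The shift on the non-irradiated 6-4PP array differed with the first varied base, as a description with no test. With T in the first place the median pair difference was -0.10, with 7 of 64 pairs above 0 and 54 below. With A it was -0.07 and with G -0.06. With C it was 0.04, with 36 pairs above 0 and 25 below. The second set of spots for the C pairs, under their other names, gave 0.02, with 34 above 0. The same pair differences under the 2 sets of names had a Pearson correlation of 0.53 over these 64 pairs, which share the array and the sequences, and had the same sign in 44 of 64.

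After irradiation, the E-box made no called difference to the CPD signal. The median pair difference was -0.04, with 121 pairs above 0 and 135 below, and 0 pairs were called in either direction, against 0.0781% of all pairs called higher and 0.0781% called lower. Spots without overlap were found in 0 of these pairs and, with the site probe lower, in 0.0391% of all pairs. An unadjusted p under 0.05 in the same exact permutation test was found for 13 pairs. With the spatially adjusted intensity, where 0.508% of all pairs were called higher and 1.05% lower, AGTT and CGAC were called lower and 0 pairs higher, and 20 pairs had an unadjusted p under 0.05.

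The unadjusted CPD signal on this array varied widely from spot to spot. The median brightness of the area around a spot ran from 1111 to 8004 across the array. The SD of log2 over the spots of an E-box probe had a median of 0.75, and of 0.30 with the spatially adjusted intensity. The SD over all pair differences was 0.42 unadjusted and 0.17 adjusted.

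The most extreme unadjusted pairs shrank accordingly. CACT read 1453 (1073 to 7957) with the E-box and 4433 (1723 to 5732) with the changed site, a pair difference of -1.61, and -0.16 with the spatially adjusted intensity. CTAT had 1.19 unadjusted and -0.21 adjusted. AGCC, the highest unadjusted pair at 1.53, read 3744 (1025 to 8383) against 1294 (363 to 7892) and was at 0.48 adjusted, with spots that overlapped almost fully. At the lower end GTAT and CACA were at -1.22 and -1.05 unadjusted and at -0.16 each adjusted, and AAGG read 1731 against 3465.5, with an adjusted difference of -0.13. At the upper end TCCT, GACG and GATC were at 0.82, 0.74 and 0.71 unadjusted and at 0.12, 0.09 and 0.16 adjusted.

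CGAC was the pair that kept the larger adjusted difference of those called. With the spatially adjusted intensity it read 2019.7 with the E-box and 2536 with the changed site, a difference of -0.33 with an adjusted exact permutation p of 0.0383. Under its other name the same pair of sequences was at -0.13, adjusted, and was not called. AGTT read 5538 against 6658, a difference of -0.27 with an adjusted exact permutation p of 0.0431. Unadjusted, the AGTT difference was 0.27 and so had the opposite sign.

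By first varied base, C differed from the rest on the irradiated CPD array. The median pair difference of the 64 C pairs was -0.16 both unadjusted and adjusted, and 52 of 64 adjusted differences lay below 0. Under their other names the same sequences gave -0.13 unadjusted and -0.17 adjusted. With A, G and T in the first place the adjusted medians were -0.04, -0.05 and 0.07. Of the 64 adjusted C differences, 49 had the same sign under both sets of names. Their correlation between the sets was 0.25, so the shift recurred while the order of pairs within it recurred only weakly.

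After irradiation with the 6-4PP antibody, few pairs were called. The median pair difference was 0.03, with 148 pairs above 0, 87 below and 21 at 0. The 21 at 0 are the pairs in which both medians stood at the ceiling of 65535, and these have no order. The E-box probe was called higher in 5 pairs, against 2.42% of all pairs, and lower in 2 pairs, against 7.93%. The called shares of 1.95% and 0.781% were below this background. With the spatially adjusted intensity 5 pairs were higher, against 2.54%, and 0 lower, against 8.48%. Spots without overlap were found in 0 pairs in either direction, against 0.0391% of all pairs with the site probe higher and 2.54% with it lower.

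TGTT and TATT were called with both intensities. TGTT read 27522.5 (20004 to 53911) with the E-box and 19675.5 (16995 to 25143) with the changed site, a difference of 0.48 ± 0.17 (SE), with an adjusted exact permutation p of 0.0275. TATT read 30295 (21568 to 35204) against 22641.5 (20034 to 26491), a difference of 0.42 ± 0.09 (SE), with an adjusted exact permutation p of 0.0193. The TGTT call was lost in 5 and the TATT call in 3 of the 10 repeats with a spot left out, and 0 of the 7 calls on this array held in all of them. The spots of either pair overlapped, and both pairs hold 1 TT and 1 TC step.

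CGCT, GTGT and TTTC were called higher with the spatially adjusted intensity alone, and AGAC, CGCC and GTCT with the unadjusted intensity alone. AGAC had the highest unadjusted difference among pairs with both medians below the ceiling, at 0.55, and read 53020.5 against 36127.5, with its brightest E-box spot at the ceiling. CGCC read 13788 (12227 to 17216) against 11183.5 (9134 to 13237), a difference of 0.30. GTCT read at least 65535 against 51143.5, so that its difference is at least 0.36. CTCG and GCAA were called lower, at -0.32 and -0.27, and were not called with the spatially adjusted intensity. The second set of spots for CTCG, under its other name, had a difference of -0.68 unadjusted and -0.43 adjusted, and was called lower with both. TAGA, at 0.50 unadjusted and 0.43 adjusted, was not called, with an adjusted exact permutation p of 0.818.

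Pairs without any dipyrimidine had a median difference below 0 on the irradiated 6-4PP array, which the second set of spots showed at a smaller size. Over these 16 pairs the E-box probes had a median of 4497 and the changed-site probes 5103, and the median pair difference was -0.22, with 4 above 0 and 12 below. The spatially adjusted median was -0.19. In the 160 pairs with 2 dipyrimidines the median was 0.02, and in the 80 pairs with 4 it was 0.05. Among the 16 pairs 0 were called. For the 8 of them that begin with C, the median was -0.23, with 7 below 0, and under their other names it was -0.06, with 5 below 0.

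CACA had the lowest unadjusted difference of all pairs there. It read 4064.5 (2714 to 6430) with the E-box and 6018 (3884 to 11557) with the changed site, a difference of -0.57 ± 0.22 (SE), with an adjusted exact permutation p of 0.102. Under its other name the same pair of sequences was at 0.07. CATA and CGTG, which also lack a dipyrimidine, were at -0.48 and -0.47, and at -0.28 and 0.52 under their other names. In contrast, CACG (0.34), TACA (0.16), TACG (0.14) and TGCG (0.06) lay above 0. TAGG and TCGA, which hold dipyrimidines, completed the lowest pairs at -0.51 and -0.33. On the irradiated CPD array the 16 pairs had a median of -0.10 unadjusted and 0.03 adjusted.

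With T in the last varied place, which makes a TC step with the following C, the median pair difference on the irradiated 6-4PP array was 0.09. It was above 0 in 43 of 64 pairs and below in 6, the others being at 0. The spatially adjusted median was 0.08, with 46 above 0. Pairs with both medians at the ceiling are part of these adjusted values, although the adjustment rescales the ceiling there and gives them no order. With A, C and G in that place the medians were 0.00, 0.03 and 0.02. The T pairs were also the brightest, with a median of 44913 over E-box probes, against 9406.5 for G.

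After irradiation the probes of both libraries differed widely in brightness with their varied bases. On the irradiated CPD array ATTT read 12923.5 (7851 to 15110) with the E-box and 9758 (6194 to 12408) with the changed site, and TTTT read 10389.5 and 10249. ATTA read 9360 and 8304, and TTTA, at 9039, was the third brightest changed-site probe. These endings hold runs of thymine.

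At the dim end of the CPD array stood endings without TT. CGAC read 898, CCCA 1195 and GCCA 1221 with the E-box, although CGAC read 2137 under its other name. GCCA read 1074.5, CGGA 1205.5 and AGCC 1294 with the changed site. This order depended on the intensity, and with the spatially adjusted one the dimmest were TGGC (1646) with the E-box and GCGC (1583) with the changed site. Between the extremes, AAAA, whose thymines lie on the other strand, read 5365.5 and 5031.5, CCCC 2665.5 and 2774.5, and GGGG 1697 and 1362, with the E-box first. None of these pairs was called with the unadjusted intensity.

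On the irradiated 6-4PP array the brightest probes could not be ranked. A median at the ceiling was found for 26 E-box and 22 changed-site probes, among them ATTA and ATCA, AGCC and AGTT, and ATTT with either site. TTTT, brightest of the homopolymers, read 35507 (over 9 unflagged spots) and 30898, AAAA 20580.5 and 20433, CCCC 18269 and 17571, and GGGG 12055 and 11634.5. GCCA and GCTG were low, at 5905 and 5960 with the E-box and 6243 and 5061 with the changed site. The dimmest were CGCA (3985.5), CTAG (4001) and CACA with the E-box and CACG (3544), CTAG (3898) and TACA (4385) with the changed site.

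The weights of the dipyrimidine types were set side by side for the libraries, as a description. Log2 intensity was fitted by least squares on how often each dipyrimidine step (TT, TC, CT, CC) occurred on either strand, separately in each library. Both probes of a pair hold the same dipyrimidines, so both fits use the same counts and similar weights follow from similar levels. No SE was computed for the weights. Each TT step went with 0.62 in the E-box library and 0.63 in the changed-site library on the irradiated CPD array. The TC weights there were 0.28 and 0.23, the CT weights 0.10 and 0.17 and the CC weights -0.13 and -0.15. TT thus had the largest weight for CPD in either library.

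For 6-4PP the TC step had the largest weight, at 1.22 with the E-box and 1.17 with the changed site. TT steps went with 0.54 and 0.49, CC steps with 0.31 and 0.27 and CT steps with 0.28 and 0.24. Over all 5480 distinct sequences the TC weight was 1.05. Values at the ceiling were part of this fit, and their effect on the weights was not tested. The fit left much of the variation, with an R squared of 0.61 in both libraries for 6-4PP and of 0.58 and 0.62 for CPD. With the spatially adjusted intensity it was 0.75 in both libraries for CPD and 0.615 and 0.605 for 6-4PP, with the E-box first.

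Across all varied endings (the 512 probes taken as pairs), the log2 level of the E-box probe and that of the changed-site probe had a Pearson correlation of 0.99 on the irradiated 6-4PP array and of 0.79 on the irradiated CPD array, where it was 0.96 with the spatially adjusted intensity. On the non-irradiated arrays it was 0.50 with the CPD antibody and 0.47 with the 6-4PP antibody. Without the GTNA endings these values were 0.56 and 0.36. Both probes of a pair share the array, the backbone and all dipyrimidines, so these correlations are descriptions. The SD of log2 levels between the E-box probes was 1.18 for 6-4PP with UV, and the SD of the pair differences was 0.17. These SDs and the correlation of 0.99 include the 21 pairs with both medians at the ceiling.

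Spots of one sequence under different names set the scale of these differences. For the 64 pairs with C in the first place, the same sequence differed between its names by a median of 0.24 in log2 on the irradiated CPD array and of 0.11 on the irradiated 6-4PP array. The pair differences there had a median size of 0.30 and 0.15. With the spatially adjusted CPD intensity, the same sequence differed by 0.09 and the pairs by 0.16. For these 64 pairs the typical pair difference on the irradiated arrays was above the difference between sets of spots of one sequence, and of the same order. Over all pairs of the libraries, the median size was 0.27 on the irradiated CPD array and 0.12 with its spatially adjusted intensity. On the irradiated 6-4PP array it was 0.09, below the 0.11 between sets of spots, and includes the pairs with both medians at the ceiling. With the spatially adjusted 6-4PP intensity both values were 0.10.

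The libraries of 59 bases gave a comparison on the same arrays with the base C after the varied bases left out. Their pairs had median differences of 0.02 and -0.07 without UV for CPD and 6-4PP, and of -0.07 and 0.01 with UV. On the non-irradiated 6-4PP array 70 pairs of 59 bases lay above 0, against 72 pairs of 60 bases. The small shift to the changed site on that array was therefore present at both lengths, while the large differences of GTAA, GTCA and GTGA were found at 60 bases.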

How the data were processed

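Of the 62976 spots on an array, 61260 belonged to the 6126 probe names, at 10 spots a name. The authors deposited an Alexa 488 intensity per spot on a linear scale, a copy with flagged spots emptied, a local median intensity and a spatially adjusted intensity, per the file headers. Tested on the files, the adjusted intensity equals the unflagged intensity times the array median over the local median. The Cy3 column holds 1 at every spot, so no correction for the amount of DNA was made. The sources used here give no scanner, gain, UV dose or software. The main values are medians of unflagged spots, with at least 8 of 10 left for each of these probes. Intensity ends at 65535, so values there are lower bounds.

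Pairs were tested on log2 spot intensity with Python 3.11.15, NumPy 2.4.6, pandas 2.3.3 and SciPy 1.17.1, and the scripts were tested on simulated data. The smallest unadjusted p that 10 against 10 spots can give is 1.08e-05. With 1 array in each group, precision is limited by the number of arrays, and p-values measure the spread between spots, which is technical. Dipyrimidine counts leave out the last 10 bases, which all names share. Alternatives used the adjusted intensity, means of log2, flagged spots kept, pairs with a spot at the ceiling or a GTNA ending (N, any base) left out, each spot position left out, calls by spots that do not overlap, adjustment over the 4 arrays together, the linear scale, the listed strand alone and the condition as the titles give it. The GTTA pair was added to the left-out endings, and the values under other names were added, after seeing the data.

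The pairs named are the 5 highest and 5 lowest pair differences of each array, the 3 brightest and 3 dimmest probes of each library on each irradiated array, the endings GTAA and GTCA and GTGA, the 4 homopolymers, and the endings ATTA and ATCA and GCCA and GCTG. Called pairs, GTTA and the pairs ending in AGT were named after their values were seen. Members, lists and groupings were chosen with earlier results of these data known.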

Additional observations from a re-analysis of the deposited data

Results flagged for a closer look

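The E-box library with another 3′ stretch has no changed-site partner and entered no pair. Only its probes holding GTGGTNAC were set against the 95th percentile of names without a dipyrimidine on the non-irradiated arrays. That level was 31 with the CPD antibody and 61 with the 6-4PP antibody, and the medians of all names were 30 and 56.5. Of the values of these probes, 5 stood above it, and the other probes of this library were not examined. With the CPD antibody, GTAA read 42.5, GTCA 52 and GTTA 39. With the 6-4PP antibody, GTAA read 65 and GTCA 69.5. The source of this signal was not tested.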

How the results depend on the processing

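Under all alternatives run, the median pair differences moved by less than the median SD of log2 over the spots of a probe. That limit is wide beside the medians and so a weak check. On the irradiated CPD array this SD was 0.75 for E-box probes. With each of the 10 spot positions left out in turn the medians ranged from -0.06 to 0.00 (CPD, UV) and from -0.07 to -0.05 (6-4PP, no UV). They ranged from 0.02 to 0.03 for 6-4PP with UV and were 0 throughout for CPD without UV. Counts of calls moved more. On the non-irradiated CPD array, 4 pairs instead of 1 were called lower with the adjusted intensity, 0 by spots that do not overlap, and 0 to 1 with a spot left out, while the pairs called higher numbered 3 to 4. On the irradiated CPD array, 2 pairs instead of 0 were called lower with the adjusted intensity. On the non-irradiated 6-4PP array, 3 instead of 7 pairs were higher and 0 instead of 14 lower by spots that do not overlap, 9 were lower with adjustment over the 4 arrays together, and with a spot left out 5 to 6 were higher and 7 to 16 lower. On the irradiated 6-4PP array, 0 instead of 5 pairs were higher by spots that do not overlap and 1 to 5 with a spot left out. There, 0 instead of 2 were lower with the adjusted intensity, without overlap, with flagged spots kept and with adjustment over the 4 arrays together, and 0 to 3 with a spot left out. The cause was not tested.

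Calls that held with each spot left out in turn numbered 3 of 5 on the non-irradiated CPD array, 10 of 21 on the non-irradiated 6-4PP array and 0 of 7 on the irradiated one. Of the 95 values of named pairs, 72 kept their call and direction with the adjusted intensity, 9 lost a call, 2 gained one and 12, none of them called, turned sign. On the irradiated CPD array these are AAAA (-0.044), ATCA (-0.15), ATTA (-0.31), CCCC (0.038), CTAT (-0.21), GCCA (-0.068), GTAA (-0.15), GTGA (-0.22) and GTTA (-0.22), adjusted. On the non-irradiated one they are AAAA (0.022) and ATCA (0.024), and on the irradiated 6-4PP array GGGG (-0.015). Pairs were not added to these 95 values for a call with the adjusted intensity alone. AGTT on the irradiated CPD array, which turned sign and was called lower when adjusted, was left out for this reason. Read by the titles, the irradiated minus non-irradiated 6-4PP difference is -8.05 for E-box and -7.86 for changed-site probes. No paired analysis was possible because each group held 1 array.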
